A study of Mus musculus with 2 samples.

Results

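The genes described here are the signalling machinery that carries a Toll-like receptor signal to the transcription factor NF-kB, together with the proteins that hold it in check. The set was a fixed list of 48 gene symbols covering NF-kB subunits, inhibitors, adaptors and kinases, matched by gene ID to 48 of the 55487 genes in the count table. RNA had been sequenced from small peritoneal macrophages, a macrophage type of the abdominal cavity that is known to grow in number during inflammation. The LPS+LCC-12 library pooled 66967 sorted cells of 8 mice, and the LPS library pooled 102283 sorted cells of 7 mice. All were SWISS mice, an outbred stock, male and 5 weeks old. Every mouse, in both groups, had been injected intraperitoneally with 20 mg/kg LPS of Escherichia coli O55:B5, a model of endotoxemia, and was given 30 mL/kg saline under the skin 6 h later. The LPS+LCC-12 mice also received 0.3 mg/kg LCC-12 intraperitoneally 6 h after LPS. LCC-12 is a small molecule known to bind copper in mitochondria. The animals were killed 22 h after LPS. Mice without LPS were not analysed here, so no value below shows what LPS itself did.

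As background, LPS is handed by CD14 to the receptor TLR4 and its partner MD-2. Adaptor proteins then recruit IRAK kinases, TRAF ubiquitin ligases and the TAK1 complex, and the IKK complex marks IkB proteins for destruction, which frees NF-kB dimers to enter the nucleus. In macrophages NF-kB is known to switch on cytokine genes and also many of its own inhibitors, among them Nfkbia, Tnfaip3 and Tnip1, so that the signal limits itself. Most kinases and adaptors of the pathway are known to be made whether or not the signal is present.

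Promoters are shown because much of the machinery is known to be under NF-kB control. Of 14 members with a match to the NF-kB motif, 5 are shown, all among those listed below as LPS-induced. Bcl3, Rel, Tnfaip2, Nfkbie, Tank, Traf3, Map3k7, Cyld and Irak1 also had a match and are not shown. The 5 shown genes had log2 ratios of LPS+LCC-12 over LPS from -1.12 to 0.22. Gadd45b, Traf5 and Traf6, at the ends of the range of ratios, had no match in their windows and are not shown. Tnip1 and Tnfaip3 were among the members with the lowest ratios of LPS+LCC-12 over LPS, Nfkbia and Nfkb2 were moderately lower, and Tnip3 was slightly higher. Each window runs 5′ to 3′ in the sense of the gene, from 250 bases before to 50 after a transcript start, and was taken from RefSeq on GRCm38.p6. Where a gene had several windows, the window with the most matches is printed. Capitals mark matches to the NF-kB consensus motif of 10 letters, which is 3 G, 1 purine, 2 of any base, 2 pyrimidines and 2 C, searched on both strands, with overlapping matches merged into a single run.
Tnip1, chr11:54962891-54963190, minus strand: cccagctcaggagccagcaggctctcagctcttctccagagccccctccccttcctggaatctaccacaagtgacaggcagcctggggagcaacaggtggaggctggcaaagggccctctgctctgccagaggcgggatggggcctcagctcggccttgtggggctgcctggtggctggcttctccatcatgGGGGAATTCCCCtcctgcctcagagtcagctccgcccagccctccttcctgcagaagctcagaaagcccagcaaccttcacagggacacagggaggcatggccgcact
Tnfaip3, chr10:19015361-19015660, minus strand: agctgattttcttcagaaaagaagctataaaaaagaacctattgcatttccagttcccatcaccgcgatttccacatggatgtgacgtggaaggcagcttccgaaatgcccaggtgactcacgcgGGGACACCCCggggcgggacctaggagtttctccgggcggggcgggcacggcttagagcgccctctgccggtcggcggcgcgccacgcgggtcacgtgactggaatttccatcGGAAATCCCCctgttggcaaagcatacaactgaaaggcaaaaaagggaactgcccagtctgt
Nfkbia, chr12:55492598-55492897, minus strand: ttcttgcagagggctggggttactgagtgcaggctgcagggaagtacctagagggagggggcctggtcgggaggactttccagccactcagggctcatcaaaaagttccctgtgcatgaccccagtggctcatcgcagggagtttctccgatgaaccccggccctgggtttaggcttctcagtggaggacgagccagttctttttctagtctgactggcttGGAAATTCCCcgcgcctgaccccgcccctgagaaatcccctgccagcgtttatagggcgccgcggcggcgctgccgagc
Nfkb2, chr19:46304487-46304786, plus strand: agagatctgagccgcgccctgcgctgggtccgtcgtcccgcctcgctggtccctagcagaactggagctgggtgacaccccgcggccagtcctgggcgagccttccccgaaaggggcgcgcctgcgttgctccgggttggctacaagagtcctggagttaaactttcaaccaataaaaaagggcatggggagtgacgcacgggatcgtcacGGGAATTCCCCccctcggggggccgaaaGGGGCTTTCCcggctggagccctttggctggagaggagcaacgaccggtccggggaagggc
Tnip3, chr6:65590148-65590447, plus strand: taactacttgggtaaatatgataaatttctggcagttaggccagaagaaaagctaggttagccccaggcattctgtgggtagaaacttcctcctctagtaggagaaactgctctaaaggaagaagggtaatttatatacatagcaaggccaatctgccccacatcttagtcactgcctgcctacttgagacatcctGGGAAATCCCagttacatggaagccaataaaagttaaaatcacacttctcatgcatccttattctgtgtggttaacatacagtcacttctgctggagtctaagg

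In Tnip1 the run of capitals was 12 bases long and began 58 bases before the start. In Nfkbia it began 29 bases and in Tnip3 54 bases before the start. Tnfaip3 held 2 separate matches, beginning 125 and 12 bases before the start, and Nfkb2 held 2 runs, beginning 39 and 11 bases before it. Over all windows in the RefSeq table, 9.55% of 27025 genes had a match in at least 1 window. Windows were matched by symbol for 39 members, of which 14 (35.9%) had a match, and not for Cd14, Ly96, Ripk2, Tab1, Ikbkb, Map3k8, Nfkb1, Relb and Nfkbiz. A match is a description of the letters in this window and says nothing of binding.

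Across the 48 members, 4 had an LPS+LCC-12 level 2-fold or more below the LPS level and 0 had one 2-fold or more above it. These 4 were Gadd45b (chr10:80930073-80932204), Tnip1 (chr11:54910785-54962917), Tnfaip3 (chr10:19000910-19015657) and Birc3 (chr9:7848699-7873186, GENCODE M21 on GRCm38), and they are 8.33% of the set. Of the 13482 genes of the whole table that reached 50 counts in either library, 6.65% were 2-fold or more lower and 4.01% 2-fold or more higher. At a size of 1.5-fold, 9 members (18.8%) were lower and 0 higher, whereas 13.3% of all genes were lower and 9.67% higher. All 48 members are protein-coding. Among 11220 protein-coding genes 4.46% were at least 2-fold lower and 3.81% higher, and at 1.5-fold 9.85% were lower and 9.35% higher. No member had fewer than 438 counts in either library. In 8004 protein-coding genes that reached 500 counts in either library, a background added once the data had been seen, 2.97% were at least 2-fold lower and 2.27% higher, and at 1.5-fold 7.62% were lower and 6.15% higher.

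Each group was a single library, so no test was possible, and a pool of other mice could give other ratios. The ratio given throughout is the log2 of the LPS+LCC-12 level over the LPS level after TMM scaling, a scaling that sets the bulk of genes equal, so a negative value is lower with LCC-12. Its exact 95% binomial interval covers counting error only and leaves out any spread between mice. Since PCR copies are not independent molecules, it may be too narrow even for counting error. The median ratio was -0.29 over the 48 members and 0.02 over all 13482 genes. Of the members, 31 (64.6%) had an interval below 0, 7 (14.6%) had an interval above 0 and 10 had an interval spanning 0. At these depths such intervals were common, and of all 13482 genes 32.9% had an interval below 0 and 36.5% an interval above 0. Where "level" is used for a single gene it is CPM per kilobase of exon. The neutrophil markers described at the end were lower in the same comparison. They took 5402 summed CPM (counts scaled to a common library size) in the LPS+LCC-12 library against 13743 in the LPS library. These sums include Lcn2 and Mmp9, which are also in the list of NF-kB target genes below. The part of neutrophil RNA in these ratios was not tested. Less RNA per cell and fewer cells of a type cannot be told apart in pooled cells.

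The members were also grouped by whether LPS is known to raise them, and the difference between these groups was not tested. From general knowledge of mouse macrophages, 22 members were listed as LPS-induced and 26 as steady. Earlier results of these data were known when the lists were chosen, so the split may not be independent of the ratios. The LPS-induced members had a median ratio of -0.56, and 20 of 22 were below 0, as were 47.6% of all 13482 genes and 44.3% of the 11220 protein-coding ones. The steady members had a median of -0.04, with 15 below 0 and 11 above 0, and this median changed sign, to 0.018, when the 100 genes with most counts and the mitochondrial genes were left out of the totals used for scaling. All 9 members that were at least 1.5-fold lower were LPS-induced ones, 40.9% of that list, and none of the steady members passed 1.5-fold in either direction. The exceptions among the LPS-induced members were Ripk2 and Tnip3, whose ratios of 0.32 and 0.22 were above 0 with intervals above 0. The groups overlapped on the other side too, since 11 of 26 steady members had an interval below 0. Steady Tirap, Myd88 and Ly96, at -0.48, -0.40 and -0.39, lay below LPS-induced Cd14, Bcl3, Rel, Tnfaip2 and Nfkbie. Summed over the list, the LPS-induced members took 5639 CPM in the LPS+LCC-12 library, against 9067 in the LPS library, and the steady members took 1865 against 1971.

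**Figure D1:**
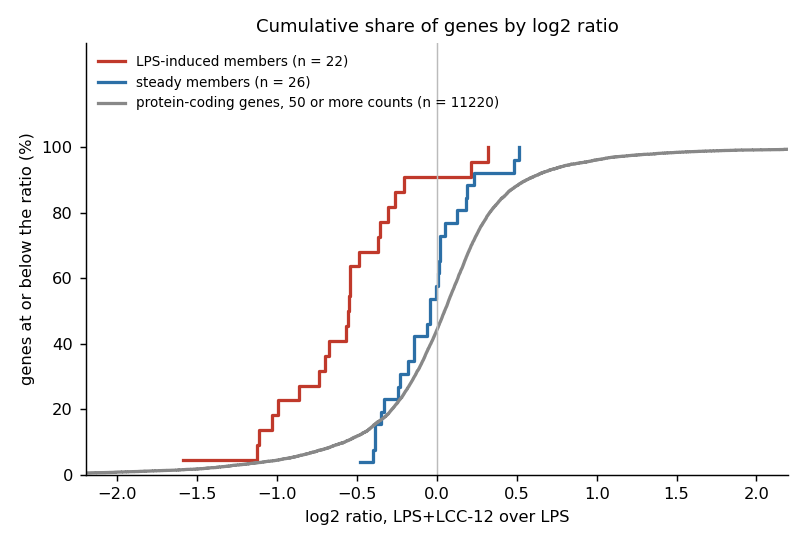
Cumulative share of genes (percent, vertical axis) at or below each log2 ratio of LPS+LCC-12 over LPS (horizontal axis, cropped at 2.2 on either side) for the 22 LPS-induced members (red), the 26 steady members (blue) and 11220 protein-coding genes (grey). The curve of the LPS-induced members lies to the left of both others over most of its course, around its median of -0.56, and the curve of the steady members crosses 0 near its middle.

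**Figure D2:**
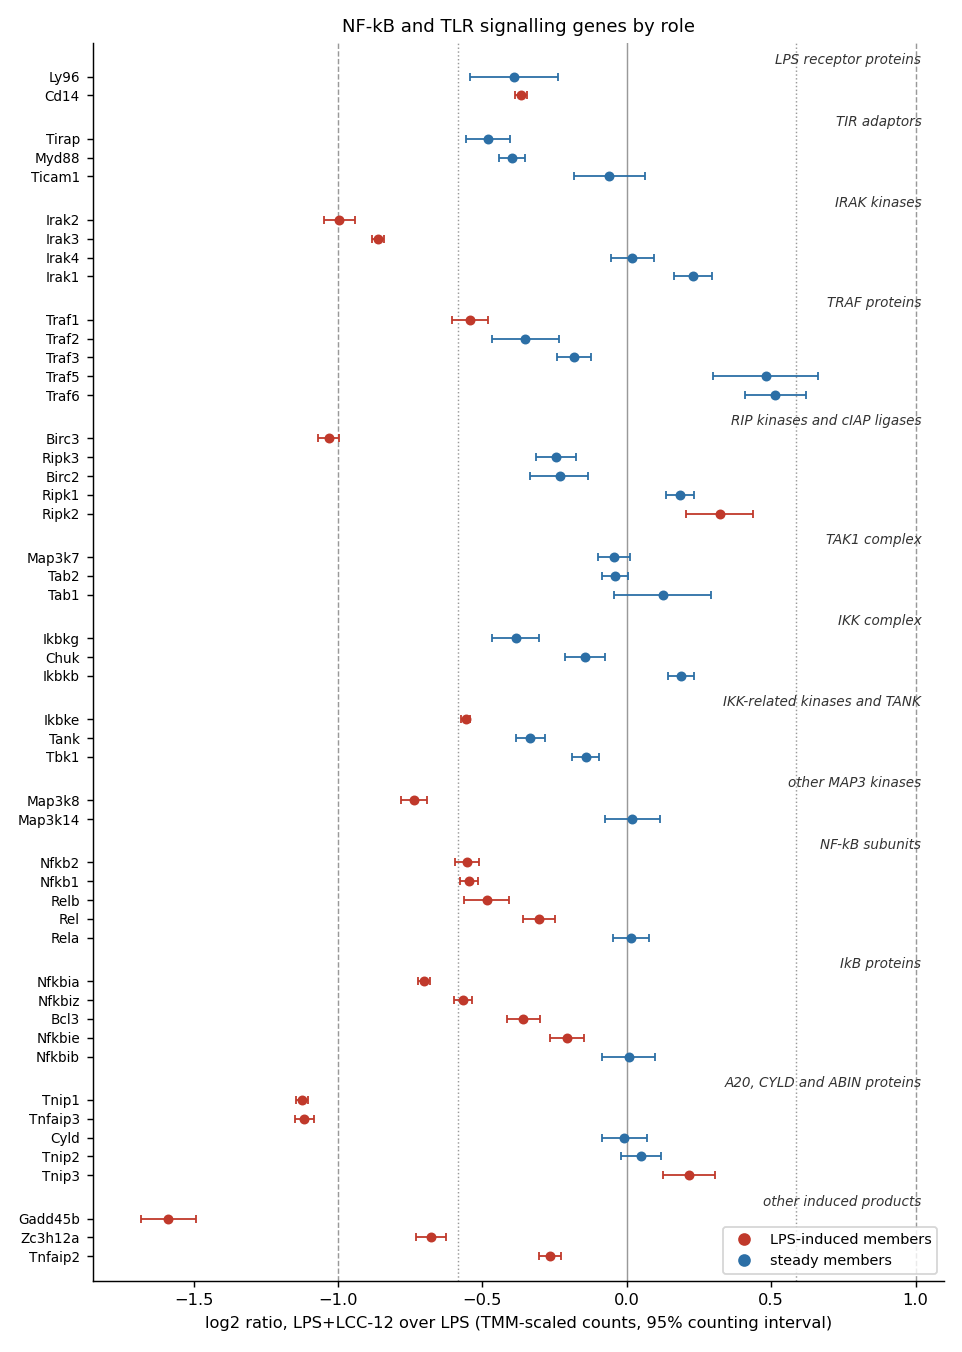
Log2 ratio of LPS+LCC-12 over LPS for each of the 48 members, ordered by role, with the exact 95% counting interval as a bar, LPS-induced members in red and steady ones in blue. Dotted lines stand at 1.5-fold and dashed lines at 2-fold. The points beyond the dashed line on the left are Gadd45b, Tnip1, Tnfaip3 and Birc3, and within most roles the LPS-induced members lie to the left of the steady ones.

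At the receptor, transcripts of both LPS-handling proteins were somewhat lower with LCC-12. Cd14, the LPS co-receptor, had 33640 counts in the LPS+LCC-12 library and 44809 in the LPS library, a log2 ratio of -0.37 (-0.39 to -0.35). Ly96, which encodes MD-2, the LPS-binding partner of TLR4, had 621 counts with LPS+LCC-12 and 840 with LPS (log2 ratio -0.39, -0.54 to -0.24). Both members of the receptor complex were thus within 1.5-fold. Cd14 was far more abundant per length, with levels of 402 in the LPS+LCC-12 library and 518 in the LPS library, against 12.6 and 16.5 for Ly96. For Tlr4 itself, which is in the list of Toll-like receptors below, the ratio was 0.12 (0.07 to 0.18).

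The adaptors that carry the signal from the receptor tail did not share a ratio. Myd88, the adaptor of most Toll-like receptors and of the IL-1 receptor, had 6868 counts with LPS+LCC-12 against 9340 with LPS (log2 ratio -0.40, -0.44 to -0.35). Tirap, which brings MyD88 to the membrane, had 2290 against 3300 counts (-0.48, -0.56 to -0.40), the lowest ratio among the steady members. Ticam1, the adaptor TRIF that leads to interferon genes, had 1029 against 1108 counts, and its interval of -0.18 to 0.06 spanned 0. Acaa1a shares 11.3% of the exon bases of Myd88, and since use of strand in the counting is not given in the sources used here, some of these reads could belong to either gene. The same holds for Tirap, which shares 9.84% of its exon bases with Srpr and Gm39318.

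Among the IRAK kinases the LPS-induced ones were lower and the steady ones were not. Irak2, a kinase of the late phase of the signal, had 4351 counts with LPS+LCC-12 and 8954 with LPS (log2 ratio -0.99, -1.05 to -0.94), just inside 2-fold. Irak3 encodes IRAK-M, a brake on the pathway that is known to build up after LPS, and had 25185 against 47253 counts (-0.86, -0.88 to -0.84). Irak4, the first kinase to act, had 2874 against 2930 counts, with an interval of -0.06 to 0.09. Irak1, its substrate, was slightly higher in the LPS+LCC-12 library, with 4057 against 3571 counts (0.23, 0.16 to 0.30). Irak3 made up 73.9% of the summed per-length level of the 4 IRAK genes in the LPS+LCC-12 library and 79.2% in the LPS library, and Irak1 9.28% and 4.67%.

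The TRAF genes spread on both sides of 0. Traf1, an LPS-induced member that has no RING ligase domain, had 3477 counts with LPS+LCC-12 and 5230 with LPS (log2 ratio -0.54, -0.61 to -0.48). Traf6, the ubiquitin ligase that Toll-like receptors use, had 1760 against 1272 counts (0.51, 0.41 to 0.62), the highest ratio of all 48 members. Traf5 had 592 against 438 counts (0.48, 0.30 to 0.66). These 2 genes were also the least abundant members per length in the LPS library, at levels of 4.62 with LPS+LCC-12 against 3.23 with LPS for Traf6 and 2.68 against 1.92 for Traf5. Traf2 and Traf3, which act at TNF family receptors and restrain the non-canonical pathway, had ratios of -0.35 (-0.47 to -0.24) and -0.18 (-0.24 to -0.12).

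Of the RIP kinases and the cIAP ubiquitin ligases, Birc3 was the member that passed 2-fold, and it did so narrowly. Birc3, an LPS-induced cIAP that blocks cell death and modifies RIPK1, had 9621 counts with LPS+LCC-12 and 20321 with LPS (log2 ratio -1.03, -1.07 to -0.998). It fell short of 2-fold with scaling by total counts (-0.99), with the reduced totals named above (-0.97), and where the whole interval had to pass. Its relative Birc2 had 1475 against 1790 counts (-0.23, -0.33 to -0.13). Ripk1, the kinase at the TNF receptor, and Ripk2, the kinase of the NOD receptors, were slightly higher in the LPS+LCC-12 library. Ripk1 had 7113 against 6466 counts (0.18, 0.13 to 0.23) and Ripk2 had 1352 against 1117 (0.32, 0.21 to 0.44). Ripk3, which drives necroptosis, had a ratio of -0.24 (-0.31 to -0.17).

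All genes of the kinase complexes at the centre of the pathway were within 1.5-fold. In the TAK1 complex all 3 intervals spanned 0: Map3k7, which encodes TAK1 itself, had 5085 counts with LPS+LCC-12 and 5415 with LPS, Tab2 had 7290 against 7744 and Tab1 had 609 against 577. The signs of Map3k7 and Tab2 turned with the scaling. In the IKK complex the kinase genes Ikbkb and Chuk had ratios of 0.19 (0.14 to 0.23) and -0.15 (-0.21 to -0.08), and Ikbkg, which encodes the scaffold NEMO, had -0.39 (-0.47 to -0.30). The summed counts of the IKK genes gave a ratio of 0.00 (-0.03 to 0.04), although its subunits lay on both sides of 0.

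The IKK-related kinases act in the interferon arm. Ikbke, an LPS-induced member, had the most counts of all members, 50545 with LPS+LCC-12 and 76856 with LPS (log2 ratio -0.56, -0.57 to -0.54), just inside 1.5-fold. Tbk1, which shares much of its task, had 7100 against 8090 counts (-0.14, -0.19 to -0.10), and Tank, a scaffold of both kinases, had 5398 against 7023 (-0.33, -0.39 to -0.28). Of the other MAP3 kinases, Map3k8, the LPS-induced kinase TPL2 that opens the ERK branch, had 6573 against 11311 counts (-0.74, -0.78 to -0.69). Map3k14, which encodes NIK of the non-canonical pathway, had 1767 against 1800 counts, with an interval of -0.08 to 0.11.

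For the NF-kB subunits themselves, 4 of 5 were lower with LCC-12 and Rela was not. Nfkb1, the precursor of p50, had 13232 counts with LPS+LCC-12 and 19965 with LPS (log2 ratio -0.55, -0.58 to -0.52). Nfkb2, the precursor of p52, had 7607 against 11523 (-0.55, -0.59 to -0.51), although Psd and another gene share 18.1% of its exon bases. Neither passed 1.5-fold. Relb, the partner of p52, had 2276 against 3290 counts (-0.49, -0.56 to -0.41), and Rel, which encodes c-Rel, had 4678 against 5966 (-0.30, -0.36 to -0.25). Rela, the p65 subunit of the classical dimer, had 4101 against 4192 counts, with an interval of -0.05 to 0.08, and its sign turned with the scaling. Of the summed per-length level of the 5 subunits, Rela made up 25.2% in the LPS+LCC-12 library and 19.0% in the LPS library. Nfkb2 remained the most abundant subunit transcript, at 31.3% and 35.0%.

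The IkB genes followed the same division, with Nfkbib as the steady member. Nfkbia encodes IkB-alpha, the inhibitor that NF-kB re-makes within each cycle of activation, and had 30550 counts with LPS+LCC-12 and 51316 with LPS (log2 ratio -0.70, -0.72 to -0.68). Per length it was the most abundant member in the LPS library, with a level of 638, and second to Cd14 in the LPS+LCC-12 library, with 392.3. Nfkbiz, the nuclear IkB-zeta needed for late genes such as Il6, had 14350 against 21964 counts (-0.57, -0.60 to -0.54). Bcl3, a nuclear IkB that binds p50 and p52 dimers, had 4221 against 5587 (-0.36, -0.42 to -0.30). Nfkbie, IkB-epsilon, had 4361 against 5201 (-0.21, -0.27 to -0.15), and Nfkbib, IkB-beta, had 1906 against 1958 (-0.08 to 0.10). Sirt2 and Ccer2 share 16.4% of the exon bases of Nfkbib.

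The ubiquitin-editing inhibitors held the largest summed difference of any role. Their 5 genes together had 958 CPM in the LPS+LCC-12 library and 1874 in the LPS library (log2 ratio -0.97, -0.98 to -0.95), and most of the difference lay in 2 members. Tnfaip3 encodes A20, an enzyme that edits ubiquitin chains on RIPK1 and TRAF6, and had 11052 counts with LPS+LCC-12 and 24737 with LPS, 2.17-fold lower (log2 ratio -1.12, -1.15 to -1.08). Tnip1 encodes ABIN-1, which brings A20 to its targets, and had 26982 against 60710 counts, 2.18-fold lower (-1.12, -1.14 to -1.10). The other three genes stood apart from these. Cyld, a deubiquitinase that limits the pathway independently, had 2636 against 2737 counts, and Tnip2 had 3477 against 3468, both with intervals spanning 0. Tnip3 had 2203 against 1959 counts (0.22, 0.13 to 0.30). Windows were printed only where they hold the NF-kB motif, as for Tnip1, Tnfaip3 and Tnip3. Of the genes of this role not printed, Cyld also had a match in its window and Tnip2 had none.

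The lowest ratio of all members was that of Gadd45b, a stress-response gene that NF-kB is known to induce and that restrains JNK signalling. It had 1187 counts with LPS+LCC-12 and 3685 with LPS, 3.01-fold lower (log2 ratio -1.59, -1.68 to -1.49). The next members stood at -1.12. Zc3h12a encodes Regnase-1, an RNase that destroys messages of cytokines such as Il6, and had 5028 against 8305 counts (-0.68, -0.73 to -0.63). Tnfaip2, a TNF-induced gene of membrane protrusions, had 10278 against 12755 counts (-0.27, -0.30 to -0.23). Of the members past 1.5-fold Zc3h12a lay nearest to that size, and of those short of it Nfkbiz and Ikbke, at -0.57 and -0.56.

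**Figure D3:**
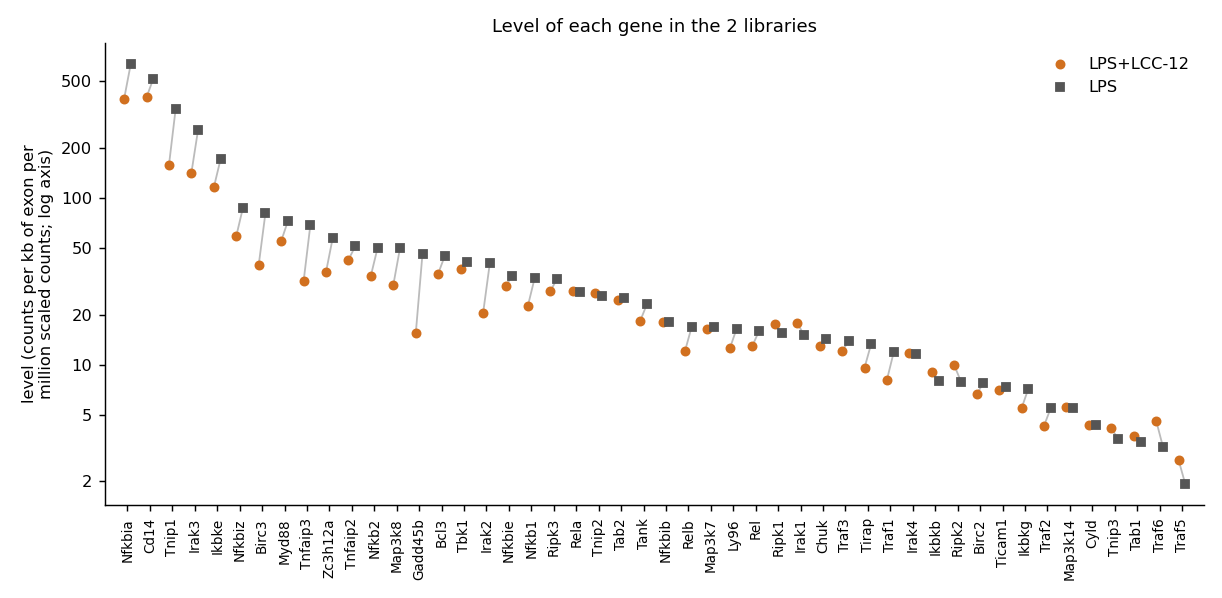
Level of each of the 48 members (CPM per kilobase of exon, log axis) in the LPS+LCC-12 library (circles) and the LPS library (squares), ordered by the LPS level. The symbols separate most for Gadd45b, Tnip1, Tnfaip3 and Birc3, and at the low end Traf5 and Traf6 have the circle above the square.

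The levels spanned a wide range, and the more abundant members tended to be the lower ones with LCC-12. Nfkbia, Cd14, Tnip1, Irak3, Ikbke and Nfkbiz were the 6 most abundant members per length in both libraries, with Cd14 and Nfkbia exchanging the first places. Traf5 was the least abundant in both. Spearman's rho between a member's mean level and its log2 ratio was -0.66 across the 48 members, -0.44 across the 22 LPS-induced ones and -0.27 across the 26 steady ones. This is a description across genes of the same pair of libraries, and genes are not replicates. A window match to the NF-kB motif was present in 56.2% of 16 LPS-induced and 21.7% of 23 steady members, a difference that was not tested. Of the 8 members at least 1.5-fold lower that had a window, 3 had a match and 5, among them Gadd45b and Birc3, had none. Map3k8, also past 1.5-fold, had no window. Beside these counts, 35.9% of all 39 members with a window and 9.55% of 27025 genes had a match.

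Ratios between related genes within a library do not depend on the scaling, and 13 such pairs were set, mostly an LPS-induced member over a steady relative. They restate the single-gene ratios above and are not separate evidence. Not every pair of relatives was set, and Tnip3 over Tnip2, for example, was not. In 11 pairs the ratio was smaller in the LPS+LCC-12 library, with a counting interval below 0, in 1 it was larger and in 1 the interval spanned 0. The median log2 difference in these ratios was -0.71. Irak2 was 1.15 times as abundant per length as Irak1 in the LPS+LCC-12 library and 2.68 times in the LPS library (log2 difference -1.23, -1.31 to -1.14). Tnip1 over Tnip2 was 5.89 with LPS+LCC-12 and 13.3 with LPS (-1.17, -1.25 to -1.10), and Tnfaip3 over Cyld was 7.30 and 15.7 (-1.11, -1.19 to -1.02). Nfkbia over Nfkbib was 21.6 and 35.3 (-0.71, -0.80 to -0.62). Nfkb2 over Nfkb1, both LPS-induced, was 1.51 and 1.52, with an interval of -0.06 to 0.05. Ripk2 over Ripk1 was the larger one, 0.563 with LPS+LCC-12 and 0.512 with LPS (0.14, 0.01 to 0.26).

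**Figure D4:**
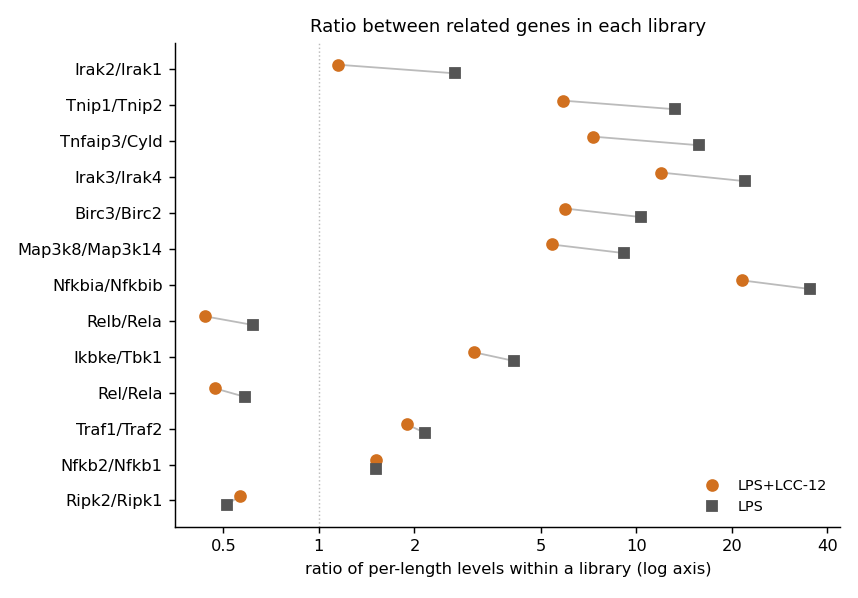
Ratio of the per-length levels of 13 pairs of related members within each library (log axis), LPS+LCC-12 as circles and LPS as squares, ordered by the difference between libraries. In 11 pairs the circle lies left of the square by more than counting error, Nfkb2 over Nfkb1 nearly coincides, and Ripk2 over Ripk1 lies the other way.

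Genes next to the machinery were read from 6 further lists of the pathway, and from a list of NF-kB target genes. Beside the counts given for these lists, 13.3% of all 13482 genes were at least 1.5-fold lower and 9.67% higher. Of the linear ubiquitin and ubiquitin-editing genes, 3 of 14 were at least 1.5-fold lower and 0 higher, with a median ratio of -0.21. The most counted were N4bp1, an inhibitor of NF-kB signalling, at -0.75 (-0.77 to -0.72), and the ubiquitin ligase gene Itch at -0.26 (-0.29 to -0.22). Of the TNF receptor proximal genes, 1 of 10 was at least 1.5-fold lower and 0 higher, with a median of -0.11. Tnfrsf1b, a TNF receptor, had -0.45 (-0.48 to -0.43), and Cflar, which blocks caspase activation at the receptor, had -0.59 (-0.62 to -0.56). Of the genes around CARD9, BCL10 and MALT1, 1 of 5 was at least 1.5-fold lower, namely Syk, the kinase upstream of CARD9, at -0.65 (-0.67 to -0.63), and Prkcd had -0.06. The medians of these 3 lists lay nearer to 0 than that of the LPS-induced members, a difference that was not tested.

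The accessory and inhibitory proteins of Toll-like receptors had a median ratio of 0.01 over 11 genes with 50 or more counts, with 0 at least 1.5-fold lower and 1 higher. Unc93b1, which carries nucleic acid-sensing receptors to endosomes, had 0.01 (-0.02 to 0.03), and Peli1, a ubiquitin ligase acting on IRAKs, had -0.10 (-0.16 to -0.04). The gene past 1.5-fold, named after its values were seen, was Ticam2, the TRAM adaptor that links TLR4 to TRIF. It had 1808 counts with LPS+LCC-12 and 951 with LPS (log2 ratio 0.97, 0.86 to 1.09). Among 10 further IkB-like proteins and regulators, 3 were at least 1.5-fold lower and 1 higher, with a median of 0.07, and Ppp4c and Pdlim2 had ratios of 0.06 and -0.49. Of 10 Toll-like receptor genes with 50 or more counts, 1, Tlr9, was at least 2-fold lower, with 534 counts with LPS+LCC-12 and 1265 with LPS (-1.20, -1.35 to -1.05), and the median was -0.43. Of all 13482 genes, 6.65% were at least 2-fold lower, and at 1.5-fold 13.3% were lower and 9.67% higher.

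The target list held 33 genes that NF-kB is known to drive outside the machinery, of which 31 had 50 or more counts. Their median ratio was -0.54, close to the -0.56 of the LPS-induced members, and 8 were at least 2-fold lower and 0 at least 2-fold higher. At 1.5-fold, 15 were lower and 1 higher. Of all 13482 genes, 6.65% were at least 2-fold lower and 4.01% higher, and 13.3% at least 1.5-fold lower and 9.67% higher. In the list 28 genes were below 0 and 3 above 0, and these 3 were named after their values were seen. They were Ccl5, the gene past 1.5-fold, at 0.81 (0.72 to 0.90), Cd40 at 0.48 (0.36 to 0.61) and Il6 at 0.10 (-0.03 to 0.23). Il1rn, the antagonist of the IL-1 receptor, had 23016 counts with LPS+LCC-12 and 73059 with LPS (log2 ratio -1.62, -1.64 to -1.60). Nos2 had -1.36, Bcl2l1, an inhibitor of apoptosis, -1.29, Lcn2, which binds siderophores, -1.24, and the chemokines Cxcl2 and Cxcl3 -1.17 and -1.09. Csf3 had -1.12, and Vcam1 had -2.01 (-2.89 to -1.26) on 17 against 72 counts. Without the 3 genes that a marker list of another cell type or macrophage type also holds, which was tried only once the data had been seen, the median was -0.50.

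**Figure D5:**
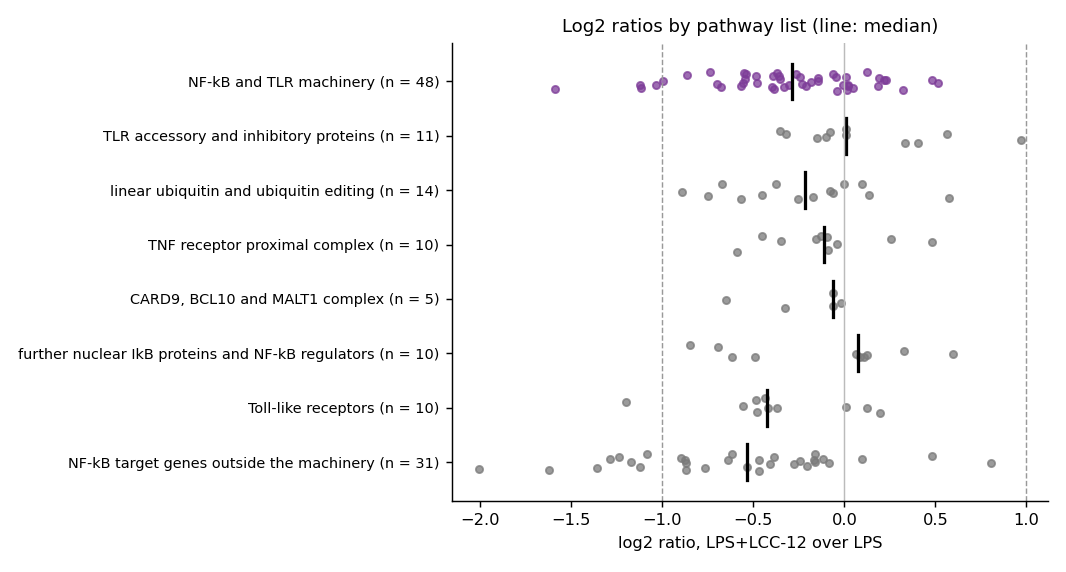
Log2 ratio of LPS+LCC-12 over LPS for each gene with 50 or more counts in the machinery and in 7 lists of related genes, with the median as a black line and 2-fold as dashed lines (vertical scatter is only for visibility). The medians run from -0.54 for the NF-kB target genes to 0.07 for the further regulators, and the machinery stands at -0.29.

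RNA of several cell type marker lists also differed between these libraries. Counts summed to 47721888 in the LPS+LCC-12 library and 50618409 in the LPS library. All 12 markers of macrophages in general were present, with 10044 summed CPM in the LPS+LCC-12 library and 8582 in the LPS library, and this list includes Cd14. Lyz2 alone took 4508 CPM in the LPS+LCC-12 library and 3049 in the LPS library. By ratio, 7 of these markers were above 0 and 5 below. Of the 12 small peritoneal macrophage markers 10 passed 2-fold on the higher side with LCC-12 (1853 against 1027 CPM), and of the 12 large peritoneal macrophage markers 8 were (5620 against 5323). Most of that sum was Saa3, also an NF-kB target, with 4360 against 4874 CPM, and without it, as tried after seeing the data, the sum was 1259.7 against 449 CPM. Thus markers of both peritoneal types were present in both libraries. Of 14 neutrophil markers, 9 were at least 2-fold lower and 0 higher (5402 against 13743 CPM). Elane, at 0 in the LPS library, and Mpo had too few counts to be called, which left 12. Lcn2 and Mmp9, also NF-kB targets, took 1888 against 4445 and 389 against 724 CPM of the sum. S100a9, not in the target list, took 1464 against 3913 CPM, and Ly6g took 5.69 against 13.3. Camp and Ngp were within 2-fold, at -0.12 (-0.63 to 0.38) and -0.35 (-0.40 to -0.29). Monocyte markers were at least 2-fold lower in 5 of 8 genes (3677 against 5850 CPM), and mast cell markers in 5 of 8 (68.3 against 213 CPM). Most of the mast cell sum was Hdc, with 62.3 against 197 CPM, and the next largest, Kit, took 1.86 against 6.33 CPM. Fcer1a and Gata2 of that list had too few counts to be called. B cell markers were within 2-fold in 8 of 8 genes (240.3 against 203.3). T and NK cell, eosinophil, dendritic, mesothelial and fibroblast markers summed to between 1.32 and 5.25 CPM in the LPS+LCC-12 library and between 3.94 and 14.8 in the LPS library. Prg2, Epx and Lum were at 0 in both libraries, and Wt1, Lrrn4, Pdgfra and Cd209a in the LPS+LCC-12 library. Clec9a and Siglech were at 0 in the LPS library. The part of these cells in the ratios of the machinery was not tested.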

How the data were processed

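From each pool, 10 ng of total RNA was made, per the labels' protocols, into stranded libraries with ribosomal depletion and 12 PCR cycles, and sequenced as paired 100 bp reads. The deposited values are raw read counts per gene, not normalized, in 1 column per library. Alignment used STAR and the mm10 build, per the submitters' processing notes. The sources used here do not give the counting tool, its annotation or its use of strand.

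Symbols, exon lengths and coordinates came from GENCODE M21 (GRCm38) by gene ID (55394 of 55487 matched), and promoters from RefSeq. Counts were scaled with edgeR 4.0.16 (TMM, R 4.3.3), with 0.5 counts added in proportion to library size. Intervals are exact binomial (Clopper-Pearson) ones, or, for ratios between related genes, exact conditional ones (scipy 1.17.1). Only the binomial ones were tested on simulated data, which held counting error alone and were scaled by totals. A gene was counted as lower or higher past 2-fold or 1.5-fold where it reached 50 counts in either library. All members were named by role. Of other lists, the genes past 2-fold, or the 2 most counted, were named. Ticam2, Ccl5, Cd40 and Il6 were named after their values were seen. The members and lists were chosen with earlier results of these data known. The alternatives were other scalings (DESeq2 1.42.0 size factors among them), count minimums, 5 added counts, thinning the deeper library, whole intervals past a size, and means.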

Additional observations from a re-analysis of the deposited data

How the results depend on the processing

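The 4 and 9 members at least 2-fold and 1.5-fold lower became between 3 and 5 and between 9 and 12 over all alternatives, with Birc3 lost at 3, and the counts of higher members stayed at 0. The median log2 ratio of the LPS-induced members was -0.52 with scaling by total counts and -0.50 with totals that left out the 100 genes with most counts and the mitochondrial genes. With these reduced totals the median of all members was -0.22, and that of the steady members, -0.04 as reported, was 0.018. Over 9 alternatives for single genes, 7 members changed sign, namely Cyld, Irak4, Map3k14, Map3k7, Nfkbib, Rela and Tab2, and the counting interval of all 7 spanned 0. Members below 0 numbered between 32 and 39. The median of all 13482 genes moved by less than 0.1 under each scaling.

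With 1 library a group, no replicate was left out and no spread between mice is known. No paired analysis was possible because each group was 1 library. The counting intervals of 10 members spanned 0, so a direction for these was not detectable at this depth. Of the members, 33 share under 1% of their exon bases with another gene.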
